A study of Saccharomyces cerevisiae with 6 samples.

Results

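The 3′ portion of the 18S gene comprised positions 1601 to 2500 of the 35S gene, counted from 1 at the first nucleotide of the transcript, and ended at the mature 3′ end of 18S rRNA. These 900 of 6858 positions were chosen by coordinate alone. They lie in the exonic, mature part of RDN18-2 on the minus strand of chromosome XII (chrXII:465070-465969, build R64-1-1), and the annotation holds a second copy, RDN18-1, in the same array. Native elongating transcript sequencing (NET-Seq) was performed in *Saccharomyces cerevisiae* with RNA polymerase I (Pol I) carrying the trigger loop mutation *rpa190-F1205H* (3 libraries) and with WT Pol I (3 libraries). The mutant allele was carried on a plasmid, pRS315, in a strain in which the chromosomal *RPA190* was deleted with HIS3, both strains carried a 3×HA tag on the C terminus of Rpa135, through which Pol I was purified, and triplicate cultures were grown at 30 °C to an OD600 of 0.3. Values are normalized reads, that is, reads per 1000000 reads of the 35S gene with their 3′ end at a position, so each value is a share of its library.

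In NET-Seq, the 3′ end of a purified nascent RNA marks the last nucleotide that the polymerase added, so a high value at a position marks frequent occupancy there. The trigger loop, a mobile element of the largest Pol I subunit Rpa190, closes over the incoming nucleotide during each addition. The 18S rRNA is the RNA of the small ribosomal subunit. Much of its 3′ portion forms the head of the subunit and, in the last helices, the decoding site. Near the end of the molecule, the methyltransferase Dim1 dimethylates a pair of neighboring adenosines, and the endonuclease Nob1 later makes the mature 3′ end by cutting at site D. Because the sequence remains in the mature ribosome, a read from finished 18S rRNA cannot be told apart here from a read of a nascent transcript, and the part of such reads in any value below was not tested.

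The sequences around the positions that differed most are shown here because the results turn on them. Each is the rRNA strand, read 5′ to 3′ from the deposited table of the 35S gene, and the capital marks the nucleotide at the 3′ end of the mapped reads. The first 6 hold the positions that were among the largest rises in *rpa190-F1205H*, and the last 4 hold the positions that were among the largest falls.
Position 2484 (chrXII:465076-465105): aagguuuccguaggugaacCugcggaagga
Position 2208 (chrXII:465352-465381): ucuaaccuuggccgagaggUcuugguaauc
Position 2398 (chrXII:465162-465191): ggaucugcuuagagaagggGgcaacuccau
Position 2053 (chrXII:465507-465536): uuaaccuacuaaauaguggUgcuagcauuu
Position 1946 (chrXII:465614-465643): aggauugacagauugagagCucuuucuuga
Position 1874 (chrXII:465686-465715): gcaccaccaggaguggagcCugcggcuuaa
Position 1631 (chrXII:465929-465958): uggauuuauugaagacuaaCuacugcgaaa
Position 1937 (chrXII:465623-465652): gacacaauaaggauugacaGauugagagcu
Position 1601 (chrXII:465959-465988): ucaguauucaauugucagaGgugaaauucu
Position 1887 (chrXII:465673-465702): uggagccugcggcuuaauuUgacucaacac

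The end of the gene and the start of the spacer ITS1 follow, with the adenosines that Dim1 dimethylates in capitals, because the largest rise lies just after them.
Mature end (chrXII:465060-465109): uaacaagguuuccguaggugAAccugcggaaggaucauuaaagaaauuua

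The positions were deeply covered. The 3′ portion held 469096, 464306, and 539466 reads in the *rpa190-F1205H* libraries and 394298, 290398, and 427276 reads in the WT libraries. The median position had 408 to 457.5 reads in *rpa190-F1205H* and 244 to 355.5 reads in WT, and the fewest reads at a position above 0 were 44 to 47 in *rpa190-F1205H* and 10 to 19 in WT. Positions 2499 and 2500, and the first position of ITS1, were listed at 0 in all 6 libraries, directly after the highest position of the 3′ portion. The reason is not given in the sources used here, so these zeros are not read as levels. The remaining 898 positions were tested. Over the 3′ portion, libraries of the same strain correlated closely (Spearman 0.984 to 0.989 within *rpa190-F1205H* and 0.984 to 0.988 within WT), and libraries of different strains less so (0.731 to 0.776). Between strains, the correlation over the 5′ portion of the 18S gene was 0.781 to 0.814. The spacers took 12.1 to 12.3% of the 35S reads in *rpa190-F1205H* and 3.81 to 4.45% in WT, so a level in the 18S gene is read against a library whose other parts also differed.

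As a whole, the 3′ portion changed little, whereas its pattern changed at most positions. The mean was 164, 164, and 163 normalized reads per position in *rpa190-F1205H* and 155, 159, and 154 in WT (163 ± 0.655 in *rpa190-F1205H* and 156 ± 2.73 in WT, SD, n = 3). The libraries did not overlap, but the difference on the log2 scale was only 0.07 (exact permutation test, two-sided, p = 0.1, the smallest p that 3 libraries against 3 allow). Set against the spacers of the same library instead of the whole 35S gene, the same mean was lower in *rpa190-F1205H*, with a log2 difference of -1.497, so the direction of a level here depends on the scale. Rescaling to the spacers lowers every log2 difference in level between the strains by about 1.57, and the values below are on the deposited scale unless stated. In the 5′ portion, of equal length, the mean was 167 ± 1.82 in *rpa190-F1205H* and 173 ± 2.65 in WT. The ratio of the 3′ portion to the 5′ portion, which no scaling can alter, was -0.03 ± 0.011 on the log2 scale in *rpa190-F1205H* and -0.15 ± 0.011 in WT, and all 3 *rpa190-F1205H* libraries lay above all 3 WT libraries (difference 0.12, exact permutation p = 0.1).

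**Figure D1:**
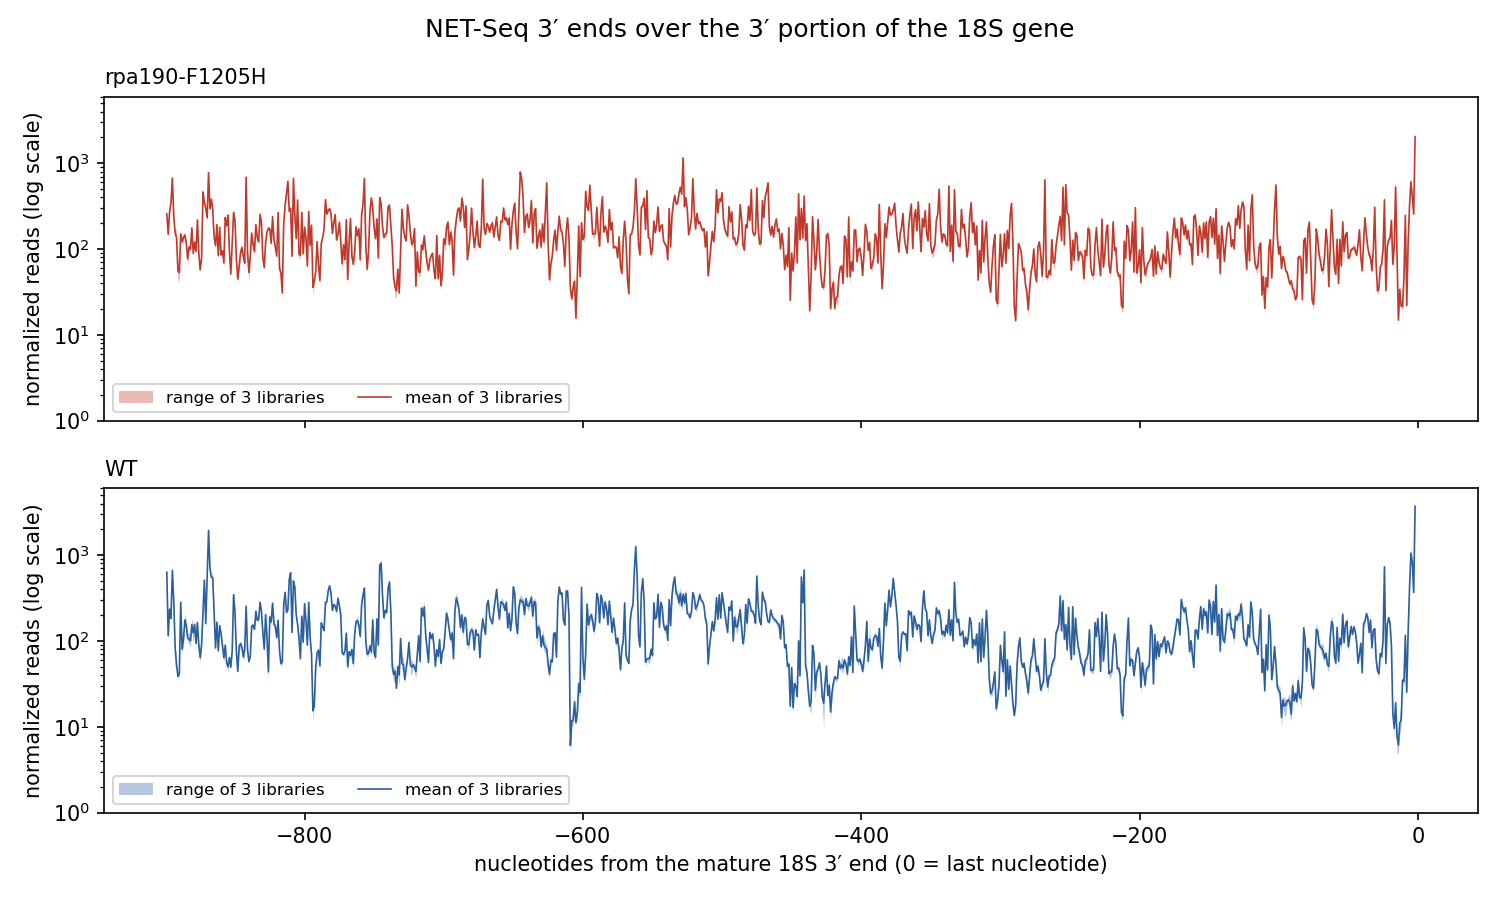
Normalized reads (log scale) at each position, by distance in nucleotides from the mature 18S 3′ end, in rpa190-F1205H (upper panel) and WT (lower panel). Lines are means of 3 libraries and shading their range; the last position with reads held 2041 ± 70.1 in rpa190-F1205H and 3718 ± 291 in WT.

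Of the 898 positions tested, 335 (37.3%) rose and 271 (30.2%) fell in the mutant relative to WT (limma, threshold 0.05 on the p adjusted by Benjamini-Hochberg over the 6843 tested positions of the gene, n = 3). Over all positions of the 35S gene, 40.6% were higher and 33.9% were lower, so both shares in the 3′ portion were a little below those of the gene. That average joins unlike parts. By last nucleotide, 78.3 to 89.3% of spacer positions were higher and 3.04 to 7.08% were lower. In the 25S gene, 21.8 to 36.0% were higher and 39.7 to 50.5% were lower. The 37.3% and 30.2% of the 3′ portion thus lay above and below every 25S value, respectively. In the 5′ portion of the 18S gene, 272 (30.2%) of 900 positions were higher and 364 (40.4%) were lower. The median log2 fold change was 0.02 in the 3′ portion, -0.13 in the 5′ portion, and 0.05 over all positions. The balance of calls in the 3′ portion depends on scaling: with TMM normalization of the recovered reads in edgeR, 322 positions were higher and 336 lower, and relative to the spacers, 37 were higher and 798 lower. All *rpa190-F1205H* libraries lay above all WT libraries at 346 positions (38.5%, against 41.8% over the gene) and below them at 301 (33.5%, against 36.2%).

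Where called, rises were larger than falls. Among called positions, the median log2 fold change was 0.85 for those that rose and -0.52 for those that fell. A change of at least 1 log2 unit was measured at 145 positions (16.1%) that rose and 19 (2.12%) that fell, and a rise of at least 2 log2 units at 29 (3.23%). These shares were below those over all positions of the gene, spacers included. There, 23.5% rose and 3.01% fell by at least 1 log2 unit, and 9.66% rose by at least 2. In the 5′ portion, 98 positions (10.9%) rose and 13 (1.44%) fell by at least 1 log2 unit. The deepest fall was 1.33 log2 units, at position 1630.

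A position can also be set against its neighbors in the same library, which removes any effect of scaling. Relative to the median of the 51 positions centered on it, 271 positions (30.2%) were higher and 329 (36.6%) were lower in *rpa190-F1205H* than in WT, close to the 29.3% and 38.6% of the whole gene (limma, Benjamini-Hochberg). On both scales, 247 positions were higher and 231 were lower, whereas 3 positions were called in opposite directions. Another 85 positions were called higher only by level and 40 were called lower only by level.

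**Figure D2:**
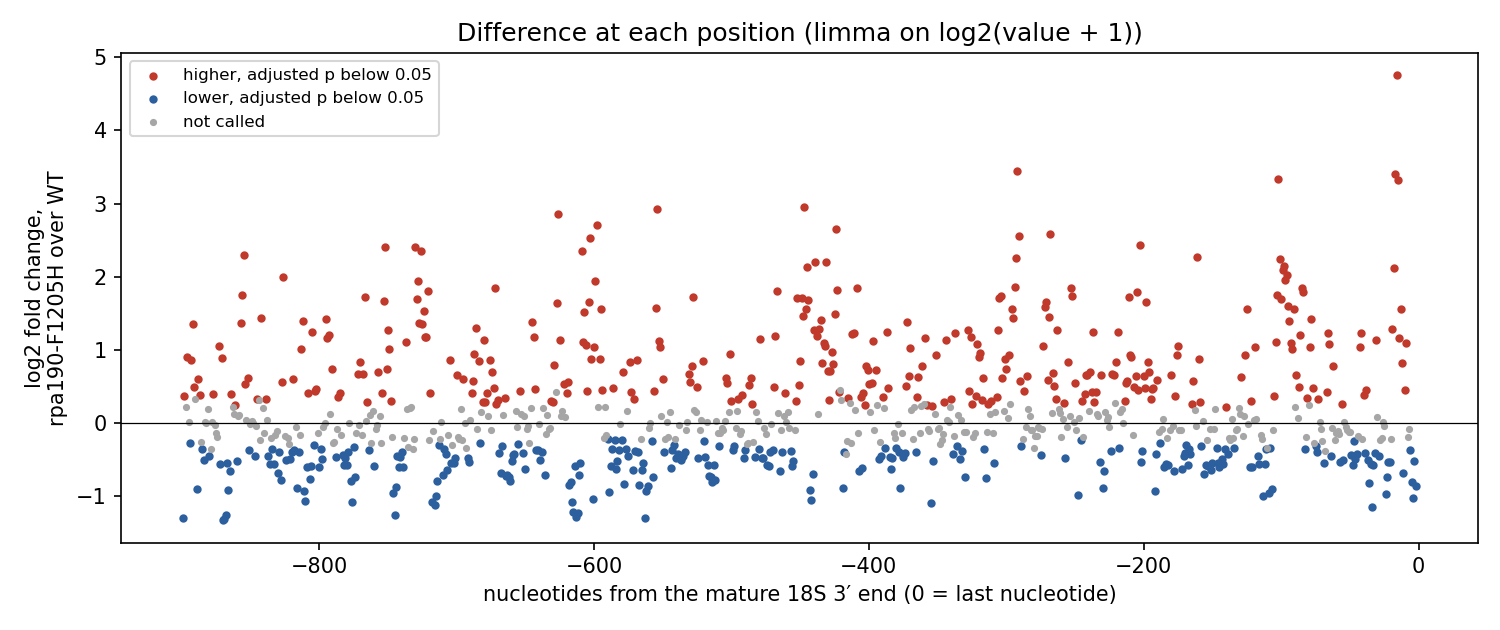
Log2 fold change of rpa190-F1205H over WT (limma on log2(value + 1)) at each tested position, by distance in nucleotides from the mature 18S 3′ end. Red points mark the 335 positions that were higher, blue points the 271 that were lower, and gray points those not called; rises reach 4.75 and falls -1.33.

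The largest rise in the 3′ portion was at position 2484, the second cytidine after the Dim1 adenosines. It held 493, 516, and 580 normalized reads in *rpa190-F1205H*, against 13.8, 23.2, and 20.1 in WT. Every *rpa190-F1205H* library was far above every WT library, and the log2 fold change was 4.75 (SE 0.17, limma adjusted p = 1.15e-07). The cytidine before it, position 2483, held 111 ± 16.9 normalized reads in *rpa190-F1205H* and 9.602 ± 1.97 in WT (log2 fold change 3.41). The Dim1 adenosines themselves rose less. Position 2481 held 216 ± 26.8 normalized reads in *rpa190-F1205H* and 88.2 ± 12.001 in WT, and position 2482 held 66.6 ± 9.28 in *rpa190-F1205H* and 14.5 ± 0.844 in WT (log2 fold changes 1.28 and 2.12). Relative to the spacers, the value at 2481 was -0.27 and was not called.

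The last 30 positions were examined as a group because they run up to the site D cut. Their share of the reads in the 3′ portion was 4.08, 4.48, and 4.17% in *rpa190-F1205H* and 5.58, 6.17, and 6.39% in WT. All *rpa190-F1205H* libraries lay below all WT libraries (difference -1.80 percentage points, exact permutation p = 0.1). Within this stretch, the strains differed in opposite directions. Positions 2471 to 2490 held 111 ± 2.50 normalized reads per position in *rpa190-F1205H* and 92.5 ± 2.47 in WT (SD, n = 3). Of these, positions 2481 to 2487 averaged 151 ± 10.4 in *rpa190-F1205H* and 22.3 ± 2.67 in WT. The 5 positions before them were together lower in *rpa190-F1205H*, as were the last 10 positions, with 402 ± 26.7 in *rpa190-F1205H* and 665 ± 55.2 in WT.

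The values on either side of the Dim1 pair differed in direction, a division chosen after the values were seen and therefore not tested. The 5 positions before the pair summed to 791, 803, and 743 normalized reads in *rpa190-F1205H* and to 1257, 1290, and 1308 in WT. The 5 positions after the pair summed to 730, 778, and 812 in *rpa190-F1205H*, against 46.5, 60.2, and 54.1 in WT. In WT, the positions after the pair were among the lowest in the 3′ portion, and position 2486 held 14.9 ± 2.37 normalized reads in *rpa190-F1205H* and 6.13 ± 1.47 in WT. All 7 positions from 2481 to 2487 were higher in *rpa190-F1205H* by at least 1.17 log2 units of their share of the 35S reads.

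**Figure D3:**
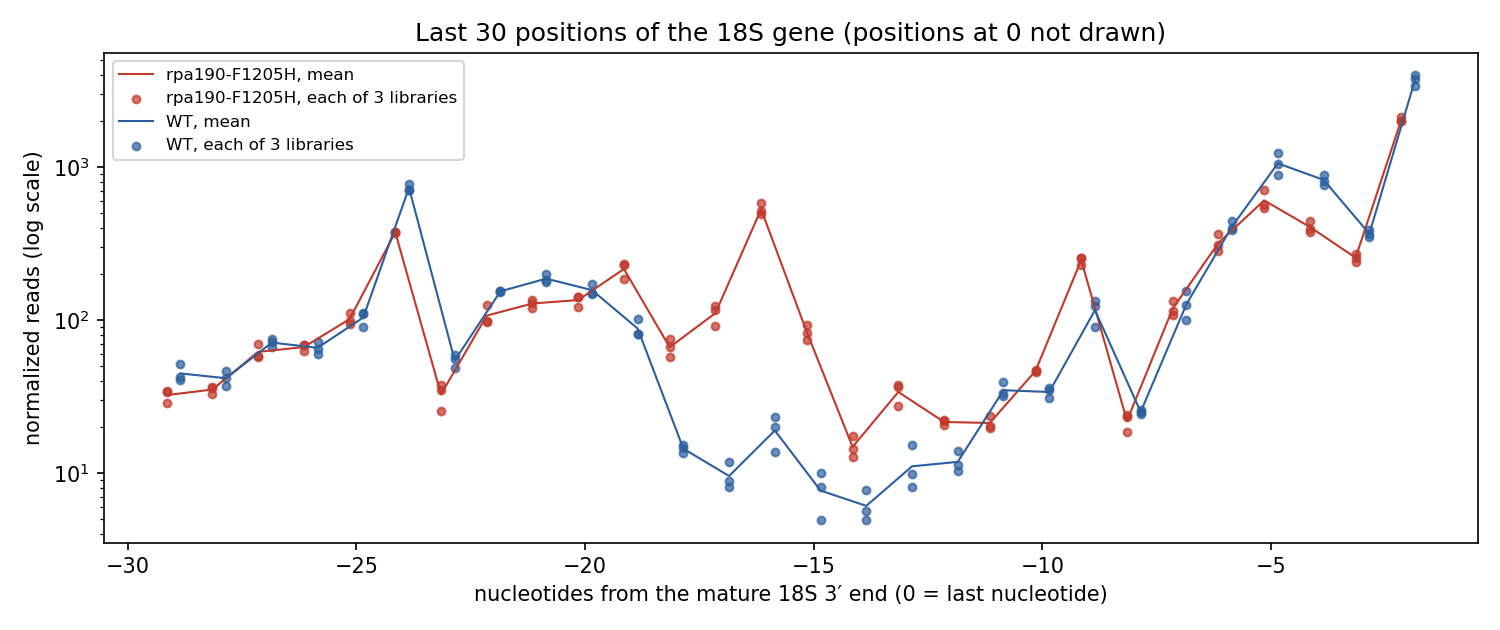
Normalized reads (log scale) at the last 30 positions of the 18S gene, by distance in nucleotides from the mature 3′ end. Points are single libraries of rpa190-F1205H (red) and WT (blue), lines are means, and the rpa190-F1205H peak 16 nucleotides before the end is position 2484, with 530 ± 45.1 normalized reads against 19.03 ± 4.75 in WT.

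At the mature end, the final positions were high in both strains and lower in *rpa190-F1205H*. Position 2498, the highest in the 3′ portion in either strain, held 2010, 2122, and 1993 normalized reads in *rpa190-F1205H* and 3403, 3773, and 3977 in WT (log2 fold change -0.86, limma adjusted p = 5.36e-05). Positions 2495, 2496, and 2497 fell by 0.80, 1.02, and 0.52 log2 units. Position 2494 fell by 0.37 (adjusted p = 0.018), a call that was lost when *rpa190-F1205H* replicate 1 or 3 or WT replicate 2 was left out, where the log2 fold change was -0.28, -0.35, and -0.31. Position 2493 held 119 ± 13.9 normalized reads in *rpa190-F1205H* and 127 ± 27.9 in WT, position 2492 held 22.03 ± 2.89 in *rpa190-F1205H* and 25.2 ± 0.712 in WT, and neither was called (adjusted p = 0.68 and 0.15). Position 2491 was the exception among the last 10 and rose by 1.10 log2 units, or changed by -0.45 relative to the spacers.

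The drop across the mature end was smaller in *rpa190-F1205H*. The first 10 positions of ITS1 held 15.7 ± 1.22 normalized reads per position in *rpa190-F1205H* and 11.2 ± 1.36 in WT. The mean of the last 10 positions of the 18S gene exceeded that of these ITS1 positions by 4.51, 4.91, and 4.63 log2 units in *rpa190-F1205H* and by 5.76, 6.12, and 5.78 in WT. The positions listed at 0 enter these means in both strains alike, so leaving them out would not alter the difference. The difference of -1.21 is independent of scaling, and all *rpa190-F1205H* libraries lay below all WT libraries (exact permutation p = 0.1).

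The other large rises lay inside the gene, spread over its length. Position 2208, a uridine followed by a cytidine, held 330, 366, and 326 normalized reads in *rpa190-F1205H* and 28.04, 37.97, and 26.2 in WT (log2 fold change 3.44, SE 0.14). Position 2398, within a run of guanosines, held 530, 526, and 621 in *rpa190-F1205H* and 55.4, 49.8, and 57.7 in WT (log2 fold change 3.34, SE 0.11). Position 1946 held 495, 456, and 493 in *rpa190-F1205H* and 62.5, 64.1, and 59.9 in WT (log2 fold change 2.93, SE 0.087). In *rpa190-F1205H*, these positions were at 4.62, 7.20, and 2.99 times their local median, and in WT at 0.652, 1.01, and 0.368 times. Absence of overlap between strains was a condition for naming the largest rises and falls, so it is not a separate result.

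Position 2053 held 237 ± 28.7 normalized reads in *rpa190-F1205H* and 29.6 ± 1.35 in WT (log2 fold change 2.95). Position 1874 held 592 ± 77.0 in *rpa190-F1205H* and 80.3 ± 8.22 in WT (log2 fold change 2.86, and 2.90 relative to the local median). Positions 1946, 1874, and 2484 are each a cytidine followed by a uridine, as the sequences above show.

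Outside the last 30 positions, the highest position in *rpa190-F1205H* was 1972, with 1119, 1170, and 1180 normalized reads, against 322, 386, and 339 in WT (log2 fold change 1.73, and 0.17 and not called relative to the spacers). The highest WT position outside this stretch was 1631, which held 728, 754, and 852 normalized reads in *rpa190-F1205H* and 1793, 1891, and 2129 in WT. It fell by 1.32 log2 units, and its neighbors 1630 and 1632 fell with it, by 1.33 and 1.26. The strains thus differed in where their highest internal position lay, although position 1631 remained the highest of the first 100 positions in both.

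Among the other named falls, position 1937 held 259, 284, and 284 normalized reads in *rpa190-F1205H* and 684, 652, and 700 in WT (log2 fold change -1.30). Its neighbor 1938, the WT maximum of 1901 to 2000, held 660 ± 34.0 in *rpa190-F1205H* and 1259 ± 55.0 in WT. These falls lay within 10 nucleotides upstream of the rise at 1946. Position 1601 held 257 ± 24.3 in *rpa190-F1205H* and 631 ± 65.1 in WT (log2 fold change -1.29), and position 1887, a weaker site, held 62.9 ± 2.16 in *rpa190-F1205H* and 154 ± 9.995 in WT (log2 fold change -1.28).

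Relative to the local median, the deepest falls were at 2058, 1755, 2057, 2496, 1754, and 2059, between -2.19 and -1.76 log2 units. Position 2496 is set partly against ITS1 and the positions listed at 0, and its log2 fold change was -1.88 on this scale and -1.02 by level. At 2057, 2058, and 2059, *rpa190-F1205H* averaged 298, 135, and 414 normalized reads, where WT had a narrow peak of 558, 278, and 671. Directly before this peak, positions 2051 to 2056 all rose and averaged 171, 157, and 181 normalized reads in *rpa190-F1205H* and 36.1, 43.5, and 40.4 in WT. Directly after it, positions 2060 to 2062 rose as well, to 128 ± 3.91 in *rpa190-F1205H* against 40.02 ± 1.58 in WT. The rises thus lay on both sides of the WT peak.

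Some rises came in unbroken runs, for which no share over the gene was computed. The longest run of positions that rose by at least 1 log2 unit was 14 positions long, from 2396 to 2409, and averaged 124, 120, and 130 normalized reads in *rpa190-F1205H*, against 27.7, 30.9, and 30.1 in WT. A run of 10 such positions, from 1770 to 1779, averaged 186 ± 8.38 in *rpa190-F1205H* and 55.4 ± 6.14 in WT. The only run of at least 3 positions that fell by at least 1 log2 unit was 1630 to 1632. Far fewer positions fell by that much than rose (19 and 145), so fewer such runs could form. Runs were looked for after the values were seen and were not tested.

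The highest position within a window of 100 also differed between strains in 7 of the 9 windows. In 1801 to 1900, it was 1855 in *rpa190-F1205H*, with 735, 780, and 855 normalized reads, against 278, 356, and 279 in WT. The WT maximum of that window, 1850, held 279 ± 30.2 normalized reads in *rpa190-F1205H* and 428 ± 31.8 in WT. In 2001 to 2100, the mutant maximum was 2033, with 590 ± 32.0 in *rpa190-F1205H* and 168 ± 9.11 in WT (log2 fold change 1.81). In 2101 to 2200, it was 2163, with 545 ± 29.4 in *rpa190-F1205H* and 231 ± 19.7 in WT, whereas the WT maximum was 2123, with 288 ± 12.2 in *rpa190-F1205H* and 534 ± 37.1 in WT.

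In 2201 to 2300, the highest mutant position was 2232, with 708, 601, and 616 normalized reads in *rpa190-F1205H* and 111, 94.2, and 113 in WT (log2 fold change 2.59). The WT maximum of that window was 2243, with 240 ± 20.5 in *rpa190-F1205H* and 335 ± 40.1 in WT (log2 fold change -0.47), only 11 nucleotides downstream. In 1701 to 1800, the mutant maximum was 1743, with 667 ± 30.6 in *rpa190-F1205H* and 411 ± 28.6 in WT, and the WT maximum was 1755, with 336 ± 30.3 in *rpa190-F1205H* and 803 ± 96.8 in WT. The WT maximum of 2301 to 2400, position 2355, held 295 ± 27.1 in *rpa190-F1205H* and 448 ± 17.4 in WT. At each window maximum of a strain that was not shared, that strain was called higher than the other. Choosing the maximum of a strain favors this direction, so these calls are not separate evidence. Relative to the spacers, 1743 and 2163 were called lower, at -0.86 and -0.32, and 1855, 1972, and 2033, at -0.18, 0.17, and 0.25, were not called.

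Sharp peaks were defined as positions at least 4 times their local median in all 3 libraries of a strain. There were 19 such positions in *rpa190-F1205H* and 25 in WT, and 7 of them were peaks in both strains. The shared peaks were 1605, 1631, and the neighboring positions 2494 to 2498 at the mature end. The local median of 2494 to 2498 takes in positions of ITS1 and those listed at 0. Single libraries had 20 to 27 positions at this limit in *rpa190-F1205H* and 26 to 32 in WT. In the 5′ portion they had 21 to 27 and 25 to 30, so the counts were not particular to the 3′ portion. In 10 *rpa190-F1205H* peaks, no WT library reached the limit, among them 1658, 1688, 1972, 2208, 2232, 2247, 2398, and 2484. In 15 WT peaks, no *rpa190-F1205H* library reached it, among them 1630, 1632, 1754, 1755, 1937, 2057, and 2058. The reads were also less concentrated in the mutant. The 9 highest positions of each library held 5.46, 5.61, and 5.80% of the reads in *rpa190-F1205H* and 7.76, 8.34, and 9.14% in WT, with no overlap between strains (exact permutation p = 0.1). The difference was -2.79 percentage points, and -1.29 without the last 30 positions, which hold position 2498.

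Along the 3′ portion, the difference in mean level was uneven. In 9 consecutive windows of 100 positions, it was largest in positions 2201 to 2300, which held 117 ± 2.04 normalized reads per position in *rpa190-F1205H* and 80.3 ± 1.73 in WT (log2 difference 0.54), and where 51 of 100 positions rose and 12 fell, against 40.6% and 33.9% over the gene. Positions 2001 to 2100 and 2101 to 2200 were also higher in *rpa190-F1205H*, by 0.22 and 0.18 log2 units. The first window, 1601 to 1700, was lower, with 186 ± 5.84 in *rpa190-F1205H* and 203 ± 2.87 in WT. In 1701 to 1800, 1901 to 2000, and 2301 to 2400, the strains overlapped (exact permutation p = 1, 0.8, and 0.2). In the windows that did not overlap, the exact permutation p was 0.1 and 0.15 after adjustment over the 9 windows.

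In the last window, the mean and the median differed in direction. Positions 2401 to 2500 held 130 ± 2.60 normalized reads per position in *rpa190-F1205H* and 144 ± 2.88 in WT as a mean, but 83.0 ± 5.60 in *rpa190-F1205H* and 73.0 ± 2.51 in WT as a median. Without the last 30 positions, the mean in this window was higher in *rpa190-F1205H* by 0.18 log2 units.

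**Figure D4:**
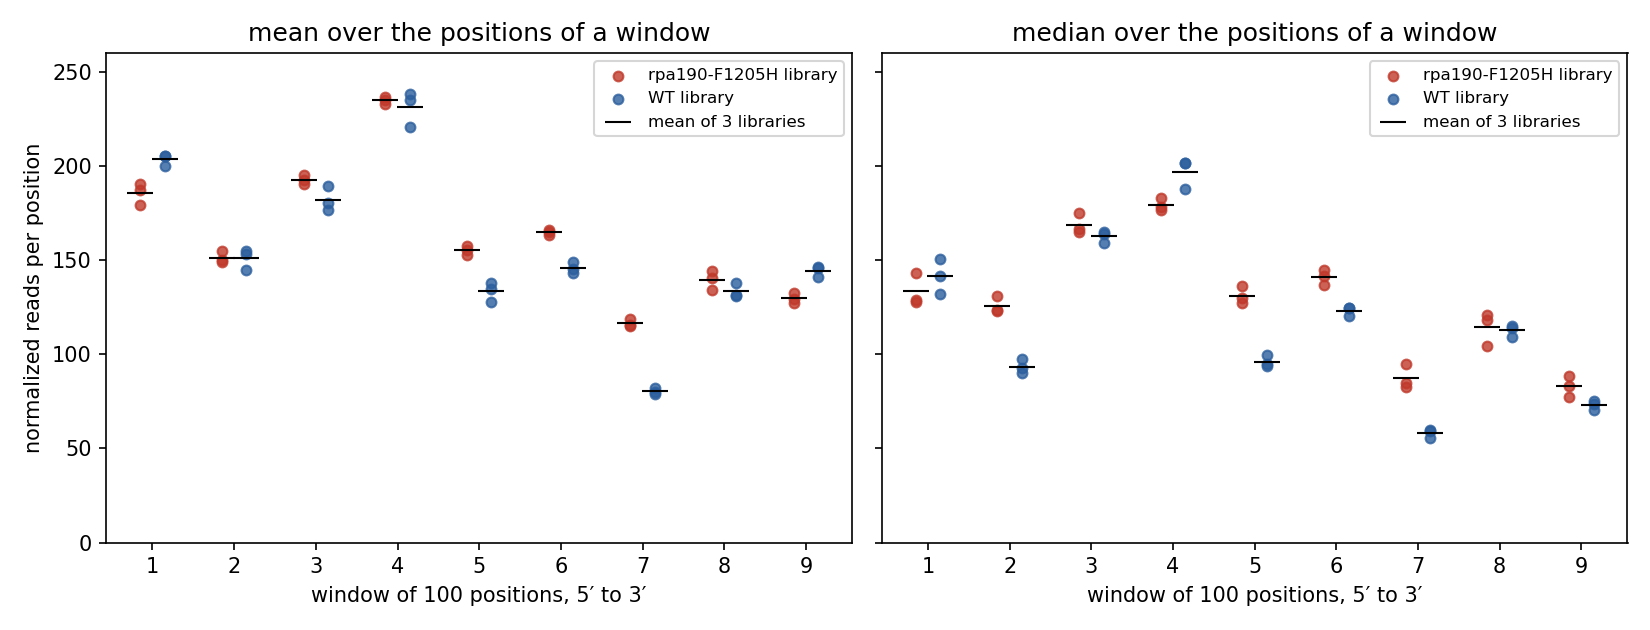
Normalized reads per position in the 9 windows of 100 positions, 5′ to 3′, as the mean (left panel) and the median (right panel) over the positions of a window. Points are libraries of rpa190-F1205H (red, left) and WT (blue, right) and black bars their means; window 7 shows the widest separation, with means of 117 ± 2.04 in rpa190-F1205H and 80.3 ± 1.73 in WT.

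The study transcribed a cloned stretch of 200 nucleotides from this 3′ portion *in vitro* (positions 2246 to 2445, chrXII:465125-465324). In the NET-Seq libraries, 82 of its positions (41.0%) were higher and 55 (27.5%) were lower in *rpa190-F1205H*, against 40.6% and 33.9% over the gene. Rises of at least 1 log2 unit were measured at 33 positions (16.5%, against 23.5% over the gene), and no position fell by that much. The sequence is shown with those 33 positions in capitals, because they were unevenly spread along it.
Cloned window: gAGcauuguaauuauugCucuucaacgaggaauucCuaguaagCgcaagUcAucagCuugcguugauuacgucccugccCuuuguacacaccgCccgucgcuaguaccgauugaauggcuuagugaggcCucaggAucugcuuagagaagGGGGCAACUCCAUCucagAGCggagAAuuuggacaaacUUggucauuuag
The long block of capitals is the run from 2396 to 2409. At position 2247, near the start of the window, *rpa190-F1205H* held 563, 553, and 574 normalized reads and WT held 152, 157, and 157 (log2 fold change 1.85).

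The last incorporated nucleotide and the composition of the preceding RNA were then compared, since the sequence in the RNA:DNA hybrid was a question of the study. In the 3′ portion, 21.97, 22.3, and 22.5% of the reads ended in a cytidine in *rpa190-F1205H*, against 19.3, 19.6, and 20.005% in WT. For uridine, the shares were 26.2, 25.7, and 24.9% in *rpa190-F1205H* and 27.9, 27.9, and 28.3% in WT. Neither pair of ranges overlapped (exact permutation p = 0.1, and 0.2 after adjustment over the 4 nucleotides). For adenosine, the shares were 29.5 ± 0.429% in *rpa190-F1205H* and 30.1 ± 0.266% in WT (exact permutation p = 0.2), and for guanosine 22.6 ± 0.019% in *rpa190-F1205H* and 22.2 ± 0.679% in WT (p = 0.6). Without the last 30 positions, the difference for uridine was -1.33 percentage points in place of -2.42, that for adenosine was -0.94 in place of -0.57, and that for cytidine was 2.23 in place of 2.60. Position 2498 is a uridine.

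Counting every position equally, so that high positions have no extra weight, gave the clearest shift for cytidine. Relative to the mean log2 level of the 3′ portion, positions ending in cytidine were at 0.14 ± 0.011 in *rpa190-F1205H* and at -0.09 ± 0.018 in WT, a difference of 0.23 (exact permutation p = 0.1). The differences for adenosine, guanosine, and uridine were -0.07, -0.04, and -0.07. Of 182 tested cytidine positions, 81 (44.5%) rose and 49 (26.9%) fell. Of 238 uridine positions, 78 (32.8%) rose and 82 (34.5%) fell. Over all positions of the gene, 40.6% rose and 33.9% fell, so the share of cytidines that rose was close to that of the gene, spacers included. Of cytidine positions elsewhere, 35.5% rose in the 5′ portion, 36.0% in the 25S gene, and 89.3% in the spacers. The cytidine difference was also present in the 5′ portion of the 18S gene (0.16), the 25S gene (0.18), and the spacers (0.44). Between the 3′ and 5′ portions of the 18S gene it differed by 0.07, with no overlap between strains (exact permutation p = 0.1).

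**Figure D5:**
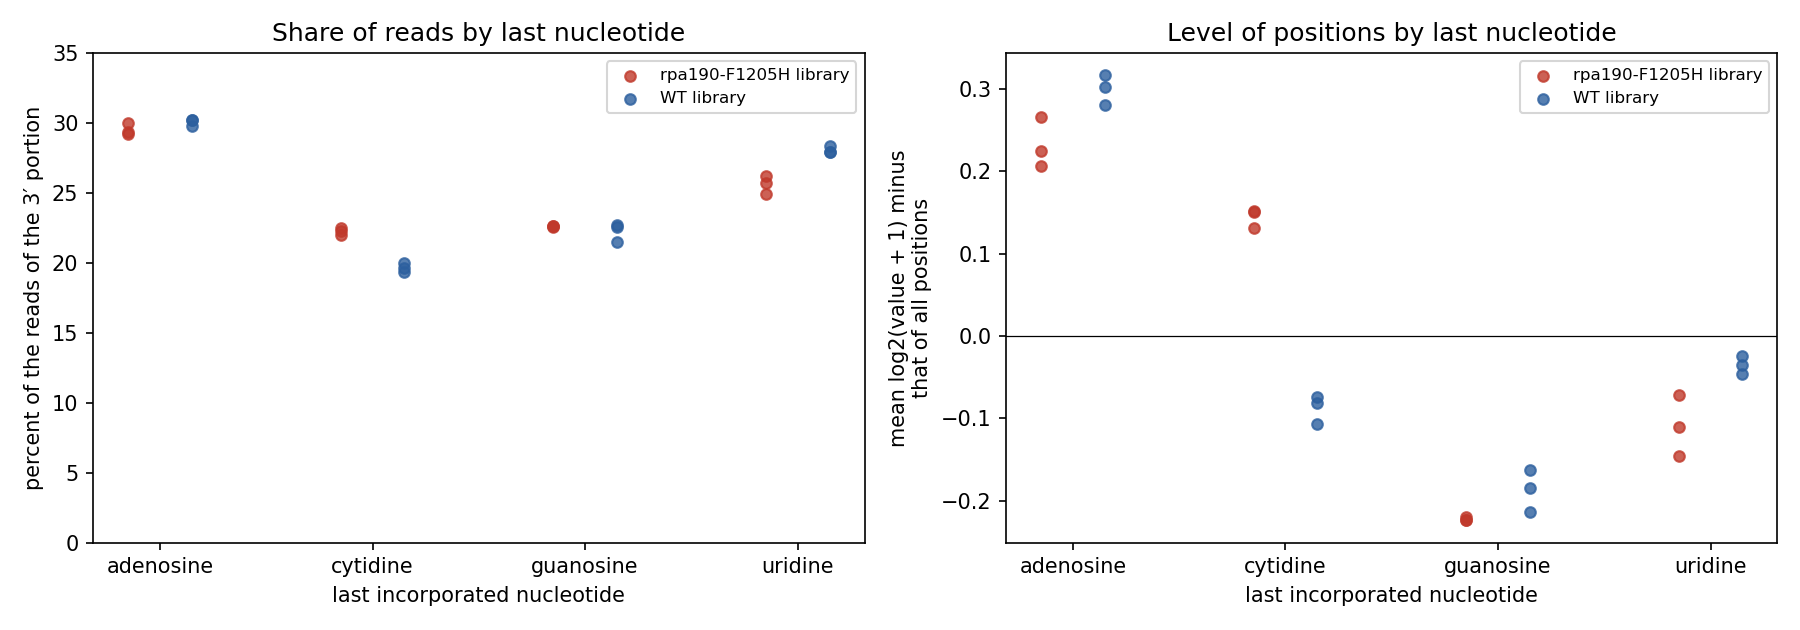
Left panel, percent of the reads of the 3′ portion by last incorporated nucleotide; right panel, mean log2(value + 1) of the positions ending in each nucleotide minus that of all positions of the 3′ portion. Points are libraries of rpa190-F1205H (red, left) and WT (blue, right); cytidine lies at 22.2 ± 0.259% in rpa190-F1205H and 19.6 ± 0.343% in WT in the left panel, and at 0.14 ± 0.011 in rpa190-F1205H and -0.09 ± 0.018 in WT in the right.

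The nucleotide that would be added next also tracked the difference. This division was made after the values were seen and was not tested. At the 58 positions with a cytidine followed by a uridine, the mean log2 fold change exceeded that of the 3′ portion by 0.60. Of them, 34 (58.6%) rose and 8 (13.8%) fell, against 40.6% and 33.9% over the gene. At the 37 positions with a cytidine followed by another cytidine, the excess was 0.51. Cytidines followed by an adenosine or a guanosine had values of -0.18 and -0.09. A uridine followed by an adenosine had -0.49, with 4 of 48 positions (8.33%) that rose and 28 (58.3%) that fell. In the 5′ portion, cytidines followed by a uridine, another cytidine, or an adenosine had 0.65, 0.40, and -0.36. The 25S gene had 0.52, 0.53, and -0.30. The spacers followed this only in part: cytidines followed by a uridine, another cytidine, an adenosine, or a guanosine had 0.55, 1.26, 0.10, and 0.23. A uridine followed by an adenosine had -0.20 there, and 76 of 99 such positions rose.

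Over the last 10 nucleotides of the RNA, weighted by reads, 56.6, 56.7, and 57.1% were purines in *rpa190-F1205H* and 55.2, 55.3, and 55.3% in WT. The difference was 1.54 percentage points, and the strains did not overlap (exact permutation p = 0.1). The share of G or C was 50.2 ± 0.255% in *rpa190-F1205H* and 48.1 ± 0.435% in WT, a difference of 2.10. With log2(value + 1) in place of reads as the weight, which gives high positions less weight, the differences were 0.32 for purines and 0.31 for G or C. Counted per position, purines made up 56.4% of these nucleotides at positions that rose, 52.1% at those that fell, and 53.3% at all tested positions, and 59.2% at the 145 positions that rose by at least 1 log2 unit. At the named rises in the sequences above, purines made up 100% of these nucleotides at 2398, 70% at 2208, 2053, 1946, and 1874, and 60% at 2484. At the named falls, they made up 70% at 1631 and 1937, 60% at 1601, and 40% at 1887, so the named rises and falls overlapped in this measure.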

How the data were processed

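The authors deduplicated reads by molecular identifier, trimmed and aligned them, and counted 3′ ends per position. The submitters' processing notes name cutadapt 1.12, STAR 2.7.1a, and bedtools 2.26.0, whereas the methods give other versions of cutadapt and bedtools. The sources used here do not say which rDNA copy a read was assigned to. The authors deposited RPM values, reads per 1000000 reads of the 35S gene, for 3 *rpa190-F1205H* and 3 WT libraries. Their own means, coefficients of variation, intervals, ratios, and p-values were not used. Division by the smallest value above 0 gave whole reads, to within 0.02 of a read, for 99.98% of values and for all values of the 18S 3′ portion. Totals over the 35S gene were 3155425 to 3687549 reads in *rpa190-F1205H* and 2028349 to 3087916 in WT.

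Each position was tested for a strain effect, with no covariate, by limma 3.58.1 (R 4.3.3) after log2(value + 1), and p-values were adjusted over 6843 positions by Benjamini-Hochberg (threshold 0.05). The fit was repeated relative to the median of 51 positions. Region values were compared by exact permutation of libraries. Alternatives included edgeR 4.0.16 and DESeq2 1.42.0 on recovered reads. On these reads, edgeR with TMM called 322 positions of the 3′ portion higher and 336 lower. Libraries of 1 strain differed by more than counting noise (chi-square per degree of freedom 2.88 to 4.77) and were treated as separate replicates, which came from triplicate cultures. Deviations of same-numbered libraries correlated (0.24, 0.13, and 0.16), whereas the labels name no shared batch.

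The region and all comparisons were chosen with earlier results of these data known. Positions named are the highest per strain and window, the 6 largest rises and falls on each scale with a mean of at least 50 normalized reads and no overlap, the last 10 positions, and the Dim1 adenosines. Other positions named (1605, 1658, 1688, 2247, the runs, and the flanks of the Dim1 pair) were chosen after their values were seen.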

Additional observations from a re-analysis of the deposited data

How the results depend on the processing

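Scaling mattered most. Rescaling to the same spacer total, which lowers *rpa190-F1205H* by 1.57 log2 units, turned the mean of the 3′ portion to -1.497, windows 2 to 8 to -1.56, -1.48, -1.54, -1.345, -1.39, -1.03, and -1.499, and the cloned window to -1.36. It left 37 positions higher and 798 lower and reversed the calls at 1743 (-0.86), 2163 (-0.32), and 2491 (-0.45). It ended the calls at 1855 (-0.18), 2481 (-0.27), 1972, and 2033. As a median over positions, window 4 was -0.13 and window 9 was 0.18, and without the last 30 positions, an alternative added after seeing the data, the mean of window 9 was 0.18.

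Leaving out each library in turn gave -0.0268 to 0.0224 for window 2, -0.0108 to 0.0458 for window 4, and -0.00924 to 0.618 percentage points for reads ending in guanosine, ranges that include 0. Position 2493 ran from -0.237 to 0.0802. The counts ran from 303 to 325 higher and from 236 to 279 lower. With the replicate number as a block, limma called 342 positions higher and 287 lower, and relative to the local median 273 higher and 335 lower. The block ended or reversed no other result. Under the remaining settings, 277 to 346 positions were higher and 202 to 336 lower. An unequal-variance test with adjustment, the lowest in both, ended the calls at 2243 and 2494. The edgeR fit without TMM, added after seeing the data, gave 346 and 290.

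With 3 libraries per strain, exact permutation tests cannot go below p = 0.1, and with paired libraries they cannot go below 0.25. Counting error is largest in the WT trough after the Dim1 adenosines, where WT libraries had as few as 10 reads at a position.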
